A study of Homo sapiens with 6 samples.

Results

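The Toll-like receptor genes TLR1, TLR2, TLR3, TLR4 and TLR6, the adaptor gene MYD88 and the kinase genes IRAK1, IRAK2, IRAK3 and IRAK4 were analysed in RNA-seq data of U251 cells, an established human glioblastoma line. The genes were chosen by name and make up 10 of the 58735 genes in the expression table. U251 cells in high-glucose medium with serum were given recombinant human tumor necrosis factor-α at 10 ng/mL (TNF-α group, n = 3) or an equal volume of sterile deionized water (NC group, n = 3), and RNA was taken after 24 h. The cultures carried no other treatment or genetic change according to the labels, and the 3 libraries of each group came from independent biological replicates of 1 cell line. Expression was given as FPKM, fragments scaled by gene length and by a library size. Of the 10 genes 7 were expressed highly enough to be tested, and 1 of these, IRAK2, passed the threshold. Among all 12136 genes tested 1.01% passed. The mean FPKM of IRAK2 rose 5.45-fold, from 5.51 ± 0.142 to 30.1 ± 4.56 (SD, n = 3 each).

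Toll-like receptors are membrane proteins that bind conserved molecules of microbes and products of damaged cells. TLR1, TLR2, TLR4 and TLR6 act mainly at the cell surface and bind bacterial lipids and lipoproteins, with TLR1 and TLR6 working as partners of TLR2, whereas TLR3 sits in endosomes and binds double-stranded RNA. The surface receptors and the interleukin-1 receptors recruit the adaptor protein MYD88, which gathers the IRAK kinases into one complex that passes the signal to TRAF6 and from there to NF-kB and MAP kinases. TLR3 does not use MYD88 and signals through the adaptor TRIF, the product of TICAM1. TNF-α activates NF-kB through its own receptors, which use neither MYD88 nor the IRAK kinases. In the brain these receptors are best known from microglia, the resident macrophages, and are also found on astrocytes and glioma cells.

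The promoter sequences below are shown because 1 of them belongs to the gene that rose and the others to the members that held a motif searched for. Each runs 5′ to 3′ on the strand of the gene, from 250 bases before to 50 bases after the RefSeq start, on GRCh38.p14. Promoters of 9 of the 10 genes were matched by symbol, and the promoter of TLR1 was not analysed here. Capitals mark motif matches, and the promoter of IRAK2 held none. IRAK2 lies on the plus strand at chr3:10164669-10164968, IRAK1 on the minus strand at chrX:154019853-154020152, MYD88 on the plus strand at chr3:38138411-38138710 and TLR3 on the plus strand at chr4:186068906-186069205.
IRAK2: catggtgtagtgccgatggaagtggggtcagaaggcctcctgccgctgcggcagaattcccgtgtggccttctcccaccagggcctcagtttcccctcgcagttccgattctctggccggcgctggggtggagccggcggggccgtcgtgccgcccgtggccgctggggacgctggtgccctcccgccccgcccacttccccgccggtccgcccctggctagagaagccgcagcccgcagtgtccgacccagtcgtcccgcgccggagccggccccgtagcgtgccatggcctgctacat
IRAK1: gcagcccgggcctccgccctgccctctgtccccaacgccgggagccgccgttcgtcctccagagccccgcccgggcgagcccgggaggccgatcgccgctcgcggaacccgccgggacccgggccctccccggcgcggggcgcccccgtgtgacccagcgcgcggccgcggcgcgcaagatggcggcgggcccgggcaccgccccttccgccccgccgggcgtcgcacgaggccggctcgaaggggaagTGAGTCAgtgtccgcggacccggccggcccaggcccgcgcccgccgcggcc
MYD88: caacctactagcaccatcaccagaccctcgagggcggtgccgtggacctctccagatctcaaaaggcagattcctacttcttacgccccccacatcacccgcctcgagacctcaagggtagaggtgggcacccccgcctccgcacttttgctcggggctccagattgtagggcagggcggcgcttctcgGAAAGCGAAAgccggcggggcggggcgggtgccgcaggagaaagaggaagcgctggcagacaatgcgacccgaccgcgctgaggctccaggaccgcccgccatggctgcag
TLR3: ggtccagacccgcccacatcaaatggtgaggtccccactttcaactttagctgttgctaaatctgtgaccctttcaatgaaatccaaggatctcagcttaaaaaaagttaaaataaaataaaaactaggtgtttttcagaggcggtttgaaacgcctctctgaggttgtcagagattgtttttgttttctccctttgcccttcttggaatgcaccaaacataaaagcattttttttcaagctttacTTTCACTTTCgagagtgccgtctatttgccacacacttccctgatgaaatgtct

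The motifs were searched on both strands. The AP-1 motif TGANTCA reads the same on both strands, was present in 7.71% of the 35116 RefSeq promoters of this length, and was found in IRAK1, where its match starts 1 base before the start site. The interferon response element, GAAA and again GAAA with any NN between them, was present in 3.57% of all promoters and was found in MYD88, 61 bases before the start site, and on the opposite strand in TLR3, 4 bases before it. The NF-kB consensus was present in 5.91% of all promoters and in 0 of the 9 promoters matched here. These matches describe letters in a short window and were not measured as binding.

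Between 31992167 and 37897044 reads fell in genes in each library. TNF-α replicates 2 and 3 stood apart from the other 4 libraries. Genes longer than 8 kb took 16.6% and 17.9% of the reads in these 2 libraries, against 28.8% to 29.1% in the other 4, and 3592 and 2663 of the tested genes differed from the mean of NC by 1 log2 unit or more, while 152 did so in TNF-α replicate 1. Because gene length moves with these 2 libraries, the fold changes of the tested members, and of the pathway genes discussed, are also given in TNF-α replicate 1 against NC and after a correction for GC content and gene length. Of 5 glial and neural stem markers 4 reached an FPKM of 1 in at least 1 library, and S100B stayed at or below 0.168. GFAP fell from a mean FPKM of 8.24 to 2.19 (log2 fold change -1.54 ± 0.18 SE, limma adjusted p = 0.0210, and -1.83 in TNF-α replicate 1). Its call was lost without a filter, with the replicate number as a block, and without TNF-α replicate 2 or 3. It was also lost without any 1 of the NC replicates, with limma adjusted p-values from 0.0575 to 0.166 over these alternatives. SOX2 (-0.84), VIM (1.05) and NES (0.36) did not pass. In TNF-α replicate 1 these 3 genes were at -0.10, 0.34 and -0.05. Of 15 markers of other cell types none reached an FPKM of 1. The 9 myeloid markers, which would mark microglia or macrophages, summed to an FPKM between 0.209 and 0.365 in NC and between 0.120 and 0.187 in TNF-α, and PTPRC, TYROBP and CD163 had 0 reads in all 6 libraries. The 3 T cell markers were at 0 throughout and the 3 endothelial markers summed to at most 0.342.

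FPKM is scaled by length, so the levels of the genes can be ordered. In the NC group IRAK1 stood first at 245 ± 18.0 FPKM (SD, n = 3), above 99.2% of the tested genes. MYD88 followed at 35.6 ± 1.74 and IRAK2 at 5.51 ± 0.142. TLR4 (4.26 ± 0.385), TLR3 (4.20 ± 0.194) and IRAK4 (4.15 ± 0.0832) came next, and their ranges over the 3 libraries overlapped. TLR6 was lower at 1.63 ± 0.284, TLR1 lower again at 0.658 ± 0.184, and TLR2 and IRAK3 were at or near 0. In the TNF-α group IRAK2, at 30.1 ± 4.56, overlapped MYD88, at 33.8 ± 5.53, and the ranges of TLR6 and TLR1 overlapped as well. IRAK1 was still first, at 332 ± 89.3, and IRAK4 (4.32 ± 0.596), TLR3 (3.23 ± 1.96) and TLR4 (2.91 ± 1.37) again overlapped each other. Scaling by length does not remove the shift of TNF-α replicates 2 and 3, so levels in this group are less comparable between genes. The shift fitted by the correction ran from -0.79 (TLR4) to 0.90 (IRAK1) log2 units in replicate 2. In replicate 3 it ran from -0.73 to 0.75 for the same genes.

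**Figure D1:**
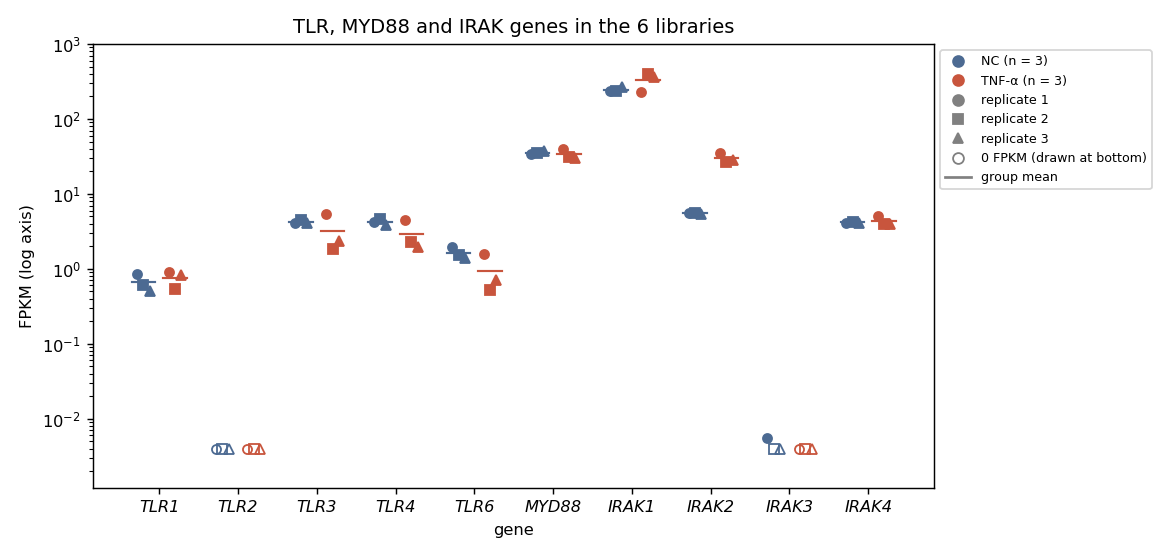
FPKM on a log axis of the 10 genes in the 3 NC and the 3 TNF-α libraries, with a point per library, shapes for replicates, a line for each group mean and open symbols at the bottom for 0. IRAK2 is the gene whose groups are clearly apart, from 5.35 to 5.63 in NC and from 26.8 to 35.3 in TNF-α, and IRAK1 is the highest gene in every library.

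Among the receptors, TLR2 had no read in any of the 6 libraries. The limit that a count of 0 allows, taken as 3 reads per library, was an FPKM of 0.0159 to 0.0237, so TLR2 was not detectable at this depth. It lies at chr4:153684070-153705702 on the plus strand. Such limits cover counting error only, since PCR duplicates are not covered. TLR1 and TLR6, the partners of TLR2, overlap on the minus strand of chromosome 4, where the span of TLR6 lies within that of TLR1, at chr4:38790677-38856817 and chr4:38823715-38856817. TLR1 had FPKM values of 0.860, 0.612 and 0.501 in NC and of 0.913, 0.544 and 0.826 in TNF-α, resting on 64 to 141 reads per library. The groups overlapped (exact two-sided permutation p = 0.6, n = 3 each), and TLR1 did not reach the filter for the test across genes. On the recovered reads its log2 fold change was 0.21 (limma-voom, 95% interval -0.53 to 0.96, adjusted p = 0.683). The annotated exons of TLR1 and TLR6 share 57 bases, and 5.33% of the 50-base words of TLR1 transcripts also occur in TLR6, so a part of their reads is uncertain.

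TLR6 had FPKM values of 1.94, 1.55 and 1.39 in NC and of 1.56, 0.518 and 0.710 in TNF-α. TNF-α replicate 1 lay within the NC range, and replicates 2 and 3 lay below it. The log2 fold change was -0.48 ± 0.22 (SE, limma adjusted p = 0.196, 95% interval -1.02 to 0.06). It was -0.03 in TNF-α replicate 1 against NC and -0.16 after the correction.

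TLR3, the receptor for double-stranded RNA, lies at chr4:186069152-186088069 on the plus strand. Its FPKM was 4.12, 4.42 and 4.06 in NC and 5.47, 1.84 and 2.39 in TNF-α. TNF-α replicate 1 was the highest of all 6 libraries and replicates 2 and 3 were the lowest. The difference of the groups did not pass the test (log2 fold change -0.39 ± 0.31 SE, limma adjusted p = 0.342), and its sign turned to 0.32 in TNF-α replicate 1 alone, while it was -0.02 after the correction.

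TLR4, the receptor for bacterial lipopolysaccharide, is the longest of the members at 13.3 kb of exons, at chr9:117704175-117724730 on the plus strand. Its FPKM was 4.28, 4.64 and 3.87 in NC and 4.48, 2.29 and 1.96 in TNF-α. Again TNF-α replicate 1 lay within the NC range and replicates 2 and 3 below it. The log2 fold change of -0.48 ± 0.25 (SE) did not pass the test (limma adjusted p = 0.204), and it was 0.06 in TNF-α replicate 1 and 0.01 after the correction, so that its sign was not kept. Of the exon bases of TLR4, 4.20% also belong to AL160272.2 on the same strand.

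The 3 TLR genes that were tested were therefore lower in TNF-α replicates 2 and 3 and not lower past the threshold in the fit of all 6 libraries. When TNF-α replicate 1 was left out, TLR3 (-0.75, adjusted p = 0.000273), TLR4 (-0.75, adjusted p = 0.000222) and TLR6 (-0.70, adjusted p = 0.00155) passed in limma. In that fit 79.4% of all genes tested passed, 36.8% as lower and 42.6% as higher, and so did MYD88 (-0.21, adjusted p = 0.0267) and IRAK1 (0.64, adjusted p = 0.000551). The log2 ratios of TLR4 to the NC mean were -0.68 and -0.83 in TNF-α replicates 2 and 3, and the median ratios of genes longer than 12 kb were -0.71 and -0.66. After the correction for GC content and gene length the log2 fold changes were -0.02 in TLR3, 0.01 in TLR4 and -0.16 in TLR6.

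**Figure D2:**
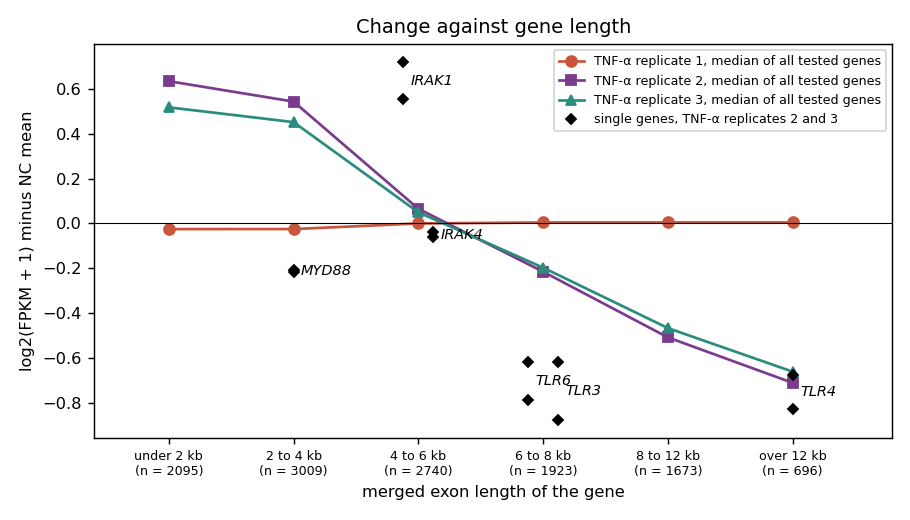
Difference of log2(FPKM + 1) from the NC mean (vertical axis) for bins of gene length (horizontal axis, with the number of genes), as the median of all tested genes in each TNF-α library, with members in TNF-α replicates 2 and 3 as diamonds and IRAK2 left out because it lies far above. The medians of TNF-α replicate 1 stay near 0 in every bin, and those of replicates 2 and 3 run from 0.63 and 0.52 under 2 kb to -0.71 and -0.66 over 12 kb.

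MYD88, the adaptor shared by most of these receptors, lies at chr3:38138478-38143022 on the plus strand. Its FPKM was 34.5, 34.8 and 37.7 in NC and 40.2, 30.7 and 30.5 in TNF-α. TNF-α replicate 1 was the highest library and replicates 2 and 3 were the lowest, so the groups overlapped. The log2 fold change was -0.08 ± 0.16 (SE, limma adjusted p = 0.686), with a 95% interval from -0.47 to 0.30, and it was 0.17 in TNF-α replicate 1 and -0.42 after the correction.

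IRAK2, a kinase-like protein of the MYD88 complex that sustains signalling to TRAF6, lies at chr3:10164865-10243743 on the plus strand, with 3.48 kb of exons and a GC content of 51.9%. Its FPKM was 5.63, 5.56 and 5.35 in NC and 35.3, 26.8 and 28.1 in TNF-α, from 599 to 708 reads and from 2376 to 3949 reads per library. Every TNF-α library was above every NC library, and the lowest TNF-α value was far above the highest NC value. In bulk RNA, a change in the number of cells that express a gene and a change in its RNA per cell cannot be told apart. The log2 fold change was 2.24 ± 0.15 (SE, 95% interval 1.89 to 2.60, limma adjusted p = 0.00316). The exact two-sided permutation test gave p = 0.1, the smallest that 3 against 3 libraries allow. Of the 12136 genes tested 1.01% passed the threshold, 0.717% as higher and 0.297% as lower, and IRAK2 ranked at position 32 by the size of the rise. It was the only one of the 7 members tested that passed, and the only one whose groups did not overlap, where 30.1% of all tested genes had groups that did not overlap, 14.8% as higher.

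The rise of IRAK2 was also present in TNF-α replicate 1, the TNF-α library whose share of reads in long genes was that of the NC libraries. In TNF-α replicate 1 against the 3 NC libraries the log2 fold change was 2.48 (limma adjusted p = 4.4e-05), a fit in which 6.03% of all genes passed and which assumes that the lone library varies as the NC libraries do. The log2 ratios to the NC mean were 2.48, 2.10 and 2.16 in TNF-α replicates 1, 2 and 3, and 2.50, 1.62 and 1.76 after the correction. The corrected log2 fold change was 1.96 ± 0.23 (SE, limma adjusted p = 0.0170, with 2.23% of all genes passing and 1.38% as higher). The call was kept in 15 of 18 alternatives. It was lost on TPM (1.89, adjusted p = 0.10) and without NC replicate 2 (adjusted p = 0.0503) or NC replicate 3 (adjusted p = 0.0515).

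**Figure D3:**
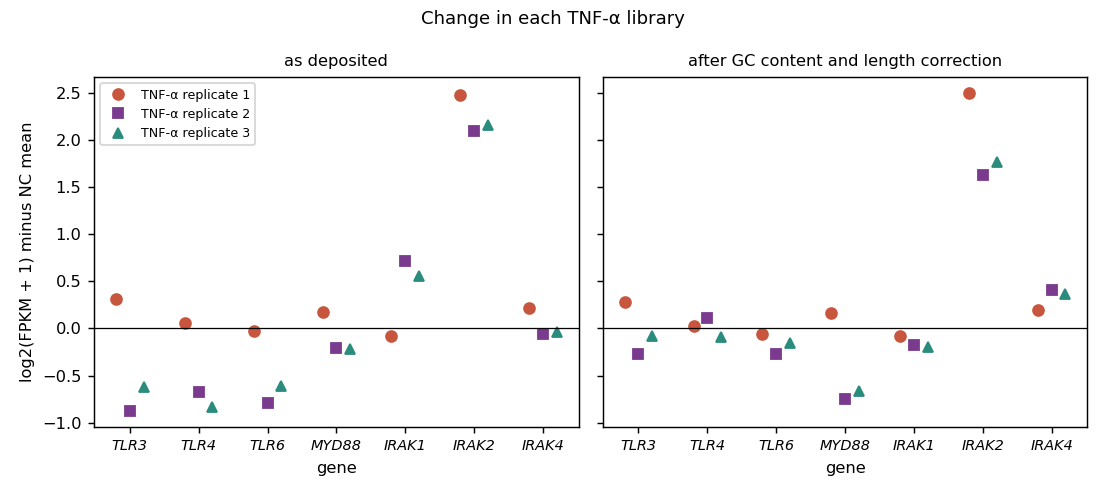
Difference of log2(FPKM + 1) from the NC mean for each tested member in TNF-α replicates 1, 2 and 3, as deposited (left) and after the correction for GC content and gene length (right). IRAK2 lies at 2.48, 2.10 and 2.16 on the left and at 2.50, 1.62 and 1.76 on the right, whereas TLR4 moves from 0.06, -0.68 and -0.83 to 0.03, 0.11 and -0.10.

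IRAK1, the kinase of the complex that is phosphorylated by IRAK4 and then binds TRAF6, lies on chromosome X at chrX:154010500-154019980 on the minus strand and has the highest GC content of the members, 63.8%. Its FPKM was 237, 232 and 266 in NC and 232, 404 and 360 in TNF-α. TNF-α replicate 1 was just below the lowest NC library and replicates 2 and 3 were above the highest, so the groups overlapped. The log2 fold change of 0.40 ± 0.25 (SE) did not pass the test (limma adjusted p = 0.259), and its sign turned on TPM (-0.10), with quantile normalization (-0.37), after the correction (-0.15) and in TNF-α replicate 1 (-0.08). Of its exon bases 1.52% also belong to MIR718 on the same strand.

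IRAK4, the kinase that binds MYD88 and starts the cascade, had FPKM values of 4.14, 4.24 and 4.08 in NC and of 5.01, 3.94 and 4.02 in TNF-α. TNF-α replicate 1 was above the NC range and replicates 2 and 3 just below it. Between the groups the log2 fold change was 0.04 ± 0.13 (SE, limma adjusted p = 0.809, 95% interval -0.27 to 0.35), which turned to -0.42 on TPM and to -0.01 after median centring. In TNF-α replicate 1 against NC it was 0.22 (limma adjusted p = 0.203), and after the correction it was 0.32 (95% interval 0.09 to 0.55, limma adjusted p = 0.138). It lies at chr12:43758944-43789543 on the plus strand. IRAK3, an inhibitor of the complex found mainly in monocytes and macrophages, at chr12:66188879-66254622 on the plus strand, had 2 reads in NC replicate 1 (FPKM 0.00553) and 0 in the other 5 libraries. The limit of 3 reads was an FPKM of 0.00830 to 0.0124 for this gene, so IRAK3 was not detectable above the limit in either group. Of its exon bases 3.20% are shared with AC078889.1 on the opposite strand or MIR6502.

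**Figure D4:**
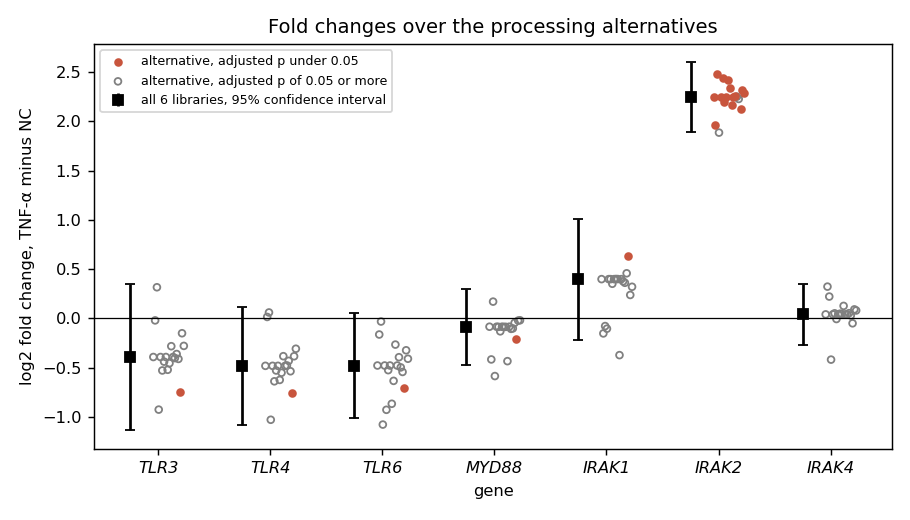
Log2 fold change, TNF-α minus NC, of the 7 tested members in the fit of all libraries with its 95% interval and under the 18 alternatives, a point for each. IRAK2 stays between 1.89 and 2.48, whereas the values of TLR3, TLR4, MYD88, IRAK1 and IRAK4 fall on both sides of 0.

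Ratios between members within a library do not depend on the library size, but still carry the shift of TNF-α replicates 2 and 3 with gene length. The ratio of IRAK2 to IRAK4 was 1.36, 1.31 and 1.31 in NC and 7.04, 6.81 and 6.99 in TNF-α. It was 5.24 times as high in TNF-α, and the 3 TNF-α libraries lay close together as deposited. After the correction they did not, since the corrected log2 ratios to the NC mean were 2.50, 1.62 and 1.76 for IRAK2 and 0.20, 0.40 and 0.37 for IRAK4. The ratio of IRAK2 to MYD88 was 0.163, 0.160 and 0.142 in NC and 0.878, 0.874 and 0.920 in TNF-α. The ratio of IRAK2 to IRAK1 spread more widely, from 0.0202 to 0.0239 in NC and from 0.0665 to 0.152 in TNF-α, and was highest in TNF-α replicate 1. As a share of the summed FPKM of the 4 IRAK genes, IRAK2 made up 2.28%, 2.30% and 1.95% in NC and 13.0%, 6.18% and 7.17% in TNF-α. IRAK1 held most of the sum throughout, from 96.0% to 96.6% in NC and from 85.2% to 92.9% in TNF-α. The ratio of TLR4 to IRAK4 was 1.03, 1.09 and 0.949 in NC and 0.894, 0.581 and 0.487 in TNF-α. For TLR6 to IRAK4 it was 0.469, 0.366 and 0.342 in NC and 0.312, 0.131 and 0.177 in TNF-α. Both ratios were lower in every TNF-α library than in any NC library, most so in replicates 2 and 3. In TNF-α replicate 1 the log2 ratio to the NC mean was 0.22 for IRAK4, 0.06 for TLR4 and -0.03 for TLR6. After the correction TLR4 was at 0.03, 0.11 and -0.10 in TNF-α replicates 1, 2 and 3. TLR6 was then at -0.06, -0.27 and -0.16. The share of ratios without overlap over all pairs of genes was not computed. The groups overlapped for TLR3 to IRAK4 and for TLR4 to TLR3.

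The other genes of the pathway were described from 7 lists with 43 genes, of which 25 could be tested. Of these, 2 passed the threshold, both as higher in TNF-α, where 1.01% of all tested genes passed and 0.717% passed as higher. After the correction 3 passed, TNFAIP3, IKBKE and CYLD, all as higher, where 2.23% of all genes passed and 1.38% as higher. The median log2 fold change of the 25 genes was 0.27, against 0.04 for all tested genes, and 0.07 after the correction. The groups did not overlap for 9 of the 25, a share near the 30.1% of all tested genes. TNFAIP3, which encodes A20, a ubiquitin-editing inhibitor of NF-kB signalling, had FPKM values of 4.14, 3.44 and 4.22 in NC and of 57.6, 18.9 and 26.8 in TNF-α (log2 fold change 2.70 ± 0.39 SE, limma adjusted p = 0.0421). IKBKE, a kinase of the interferon branch, had 3.52, 4.25 and 5.09 in NC and 12.2, 17.1 and 15.4 in TNF-α (log2 fold change 1.59 ± 0.18 SE, limma adjusted p = 0.0197). Both genes were higher in all 3 TNF-α libraries than in any NC library. After the correction their log2 fold changes were 2.63 (adjusted p = 0.0329) and 1.08 (adjusted p = 0.0254) in limma. TNFAIP3 lost its call in 10 and IKBKE in 8 of the 18 alternatives, with adjusted p-values of up to 0.276 and 0.168.

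By role, none of the 5 other TLR genes reached the filter. The co-receptors and chaperones of the receptors had 4 of 7 genes tested and 0 that passed. All 4 log2 fold changes were above 0, where 6419 of the 12111 distinct gene names tested were. With TPM or quantile normalization 3 of the 4 were above 0. Their median was 0.86, but 0.11 in TNF-α replicate 1 against NC and 0.41 after the correction. LY96, the co-receptor of TLR4, was at 1.05 (limma adjusted p = 0.195). Its log2 ratios to the NC mean were 0.11, 1.60 and 1.44 in TNF-α replicates 1, 2 and 3, and 0.02, 1.40 and 1.29 after the correction, which left a log2 fold change of 0.90 (limma adjusted p = 0.177). The other TIR adaptors had 2 of 4 tested and 0 that passed, among them TICAM1, the adaptor of TLR3, which was higher in every TNF-α library (1.11, limma adjusted p = 0.165). Its corrected log2 fold change was 0.43 (limma adjusted p = 0.0698), with log2 ratios of 0.48, 0.35 and 0.47 in TNF-α replicates 1, 2 and 3. The interleukin-1 family receptors that use MYD88 had 2 of 6 tested and 0 that passed. IL1R1 and IL1RAP had log2 fold changes of -0.25 and -0.51, but of 0.37 and 0.11 in TNF-α replicate 1 against NC and of 0.07 and -0.03 after the correction. The ubiquitin ligases and kinases downstream of IRAK had 9 of 10 tested, 6 of them below 0 (8 after the correction), and 0 that passed. Of the 12111 gene names tested 5692 were below 0.

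The interferon branch had 5 of 6 tested and 1 that passed, IKBKE, and the inhibitors had 3 of 5 tested and 1 that passed, TNFAIP3. IRF3, a transcription factor of the interferon branch, had groups that did not overlap (1.14, limma adjusted p = 0.195), with a log2 fold change of 0.13 in TNF-α replicate 1 against NC and of 0.59 after the correction (limma adjusted p = 0.166). In TNF-α replicate 1 against NC 5 pathway genes passed in limma, all as higher, where 3.7% of all tested genes passed as higher. Beside TNFAIP3 (3.575, adjusted p = 4.4e-05) and IKBKE (1.34, adjusted p = 0.00736) these were CYLD, a deubiquitinase that restrains NF-kB (0.74, adjusted p = 0.00552), TRAF3, a ubiquitin ligase of the interferon branch (0.59, adjusted p = 0.0106), and TICAM1 (0.48, adjusted p = 0.0245). In the fit of all libraries CYLD was at 0.43 (limma adjusted p = 0.195) and TRAF3 at 0.27 (limma adjusted p = 0.251), and neither passed. After the correction CYLD was at 0.92 (limma adjusted p = 0.0224) and TRAF3 at 0.33 (limma adjusted p = 0.172). CYLD, TRAF3, TICAM1, LY96, IRF3, IL1R1 and IL1RAP were chosen for mention after their values were seen.

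**Figure D5:**
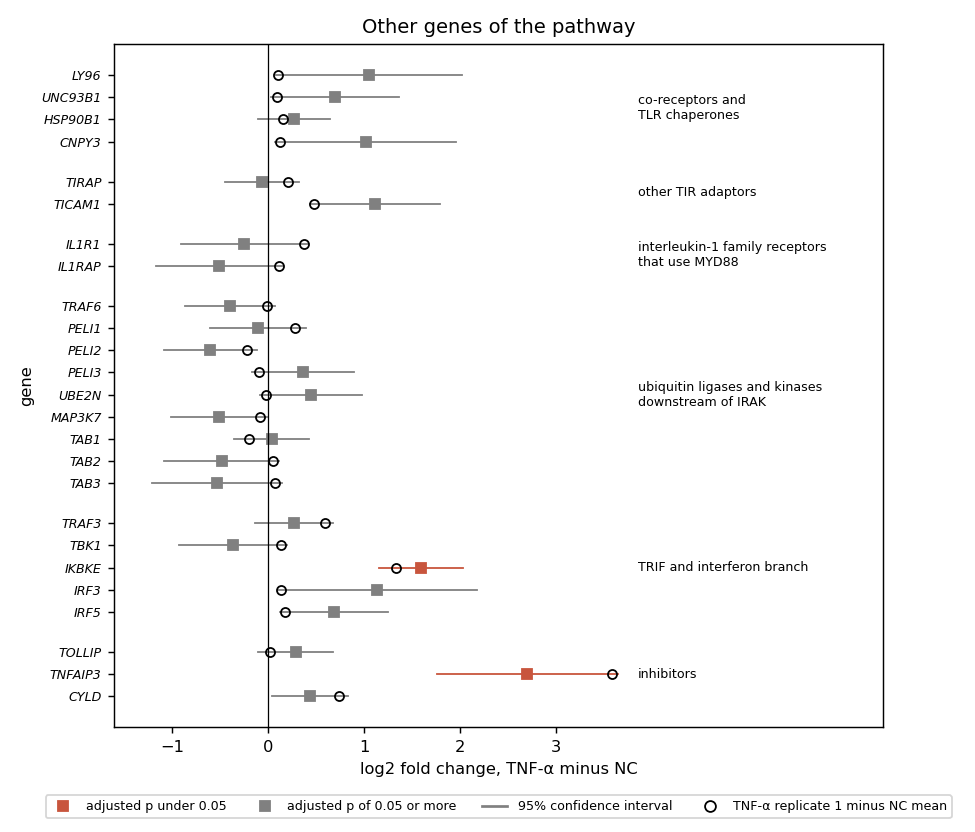
Log2 fold change, TNF-α minus NC, of the 25 tested genes of the other pathway lists, as squares with 95% intervals, coloured where the limma adjusted p was under 0.05, and with open circles for TNF-α replicate 1 minus the NC mean. TNFAIP3 (2.70) and IKBKE (1.59) pass the threshold, and many circles lie nearer to 0 than their squares, as for LY96 at 0.11.

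The genes with the pattern most like that of IRAK2 were sought among 10439 protein-coding genes tested, by Pearson's r of log2(FPKM + 1) over the 6 libraries. These were GFPT2, an enzyme of hexosamine synthesis (r = 0.9999), CFLAR, an inhibitor of caspase-8 (r = 0.9986), and CSF1, the macrophage growth factor (r = 0.9986), and 23 genes had r above 0.99. The mean FPKM rose from 5.05 to 14.3 for GFPT2 (limma adjusted p = 0.00965) and from 19.1 to 46.3 for CSF1 (limma adjusted p = 0.0167). CFLAR had means of 2.84 and 4.49 and did not pass (limma adjusted p = 0.112). For TLR4 the nearest genes were GJA1, a gap junction protein (r = 0.9993), SPRTN, a protease of DNA repair (r = 0.9985), and GFOD1 (r = 0.9979), with 82 genes above 0.99. None of these 3 passed the test, with limma adjusted p-values of 0.206, 0.215 and 0.243. The correlations are descriptions over 6 libraries that share the 2 groups and the composition of TNF-α replicates 2 and 3.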

How the data were processed

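RNA was extracted from U251 cells, selected with oligo(dT) and made into libraries with a kit whose strand marking the labels do not state. The authors deposited gene expression as FPKM with a column of gene lengths. The submitters' processing notes name HISAT2 2.0.5, StringTie 1.3.3b, featureCounts 1.5.0, DESeq2, edgeR and GATK 3.7 without their roles. The genome build is not given in the sources used here, but all 58735 genes matched GENCODE release 29 (GRCh38) in position and merged exon length. A further 6 columns of values match no sample described here and were not used.

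FPKM times gene length gave whole reads for all values (tolerance 0.01), which set the depth and the limit of 3 reads per library. FPKM divides by a scaled library size, which acts alike on all genes of a library. As a ratio to the reads in genes, this size was 0.69 and 0.76 in TNF-α replicates 2 and 3. In the other libraries it was between 0.92 and 0.96. Groups came from the sample titles. The TNF-α and NC groups were compared with limma 3.58.1 in R 4.3.3 (lmFit, eBayes with trend, two-sided) on log2(FPKM + 1), which understates the change of low genes, in the 12136 genes that reached an FPKM of 1 in 3 or more of the 6 libraries. The threshold was a Benjamini-Hochberg adjusted p under 0.05 over all genes tested. Single members also had an exact permutation test. Intervals are 95% intervals.

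The correction for GC content and gene length fitted the log2 ratio of each library with natural splines of both (5 degrees of freedom each) and their products, in 12131 genes. The alternatives were other pseudocounts, filters and normalizations, TPM, this correction, limma-voom on recovered reads with at least 10 in all, eBayes without a trend, the replicate number as a block, and leaving out each library. The comparison of TNF-α replicate 1 with the NC libraries was chosen after seeing the data. The fit was tested on simulated reads in which all libraries had the same composition. The shift of TNF-α replicates 2 and 3 with gene length was not simulated, so its effect on the fit was not tested there. Tables and plots were made with Python 3.11.15, pandas 2.3.3, numpy 2.4.6 and matplotlib 3.10.9.

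The members and the lists were chosen with earlier results of these data known. The genes named were the 10 members, the pathway genes past the threshold and the 2 with the largest absolute change, and the 3 protein-coding genes with the highest Pearson's r to the member with the largest rise and to that with the largest fall, with exceptions stated. Promoter sequences are from RefSeq.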

Additional observations from a re-analysis of the deposited data

How the results depend on the processing

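Among all genes tested 123 passed the threshold. The count was 58 without a filter and 58 on TPM, 185 with quantile normalization, 270 after the correction for GC content and gene length, 24 with the replicate number as a block, 732 for TNF-α replicate 1 against NC, and between 10 (without NC replicate 2) and 9630 (without TNF-α replicate 1) when 1 library was left out. Of the members 1 passed, against 0 on TPM and between 0 (without NC replicate 2 or 3) and 6 (without TNF-α replicate 1) with 1 library left out. Of the pathway genes 2 passed, against 1 at an FPKM minimum of 0.1, 0 without a filter, 0 on TPM, 1 after median centring, 1 with quantile normalization, 3 after the correction, 0 with the block, 5 for TNF-α replicate 1 against NC, and between 0 and 21 with 1 library left out. TPM moved the median log2 fold change of all genes to -0.42.

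The log2 fold change turned its sign for TLR3 (0.32), TLR4 (0.06), MYD88 (0.17) and IRAK1 (-0.0781) in TNF-α replicate 1 against NC, for TLR4 (0.0145) and IRAK1 (-0.15) after the correction, for IRAK1 (-0.10) and IRAK4 (-0.42) on TPM, for IRAK1 with quantile normalization (-0.37), and for IRAK4 after median centring (-0.0064) and without TNF-α replicate 1, where leaving out 1 library gave from -0.0498 to 0.0913. The cause was not tested. IRAK2 was above 0 in all 18 alternatives, from 1.89 to 2.48, and TLR6 below 0 in all 18, from -1.08 to -0.03. The adjusted p of IRAK2 was 0.0408 with the block. Deviations from the group means had correlations of -0.01, -0.18 and 0.12 in same-numbered libraries, and from -0.16 to 0.18 in libraries of different number. These values cannot decide whether the replicate numbers pair the libraries, because TNF-α replicates 2 and 3 stood apart from replicate 1. Depth limits TLR2 and IRAK3, which had at most 2 reads in a library, and TLR1, with 64 to 141.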
